A study of Mus musculus with 4 samples.

Results

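The resting wild-type macrophage miRNome is the set of mature miRNAs counted in 2 of the 4 small RNA libraries of the study, WT A and WT B. Both were made from bone marrow-derived macrophages (BMDMs) of mice labelled wild type for miR-146, on a mixed 129/B6 background and 6 to 7 months old. The macrophages were obtained from marrow by 8 to 9 days of exposure to M-CSF (10 ng/ml), the growth factor that drives monocytes into macrophages, at a starting density of 85000 cells per cm2. The resting state means that no LPS was given in the 16 h before harvest. The labels give 3 mice per genotype, and leave unsaid whether the RNA of several mice went into 1 library. The study names A and B as separate cultures, so the spread given here is that between a pair of cultures of 1 genotype, and no test between groups is possible. These are macrophages made in a dish and do not stand for macrophages of any tissue.

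The table lists 1979 mature miRNAs on 2129 lines, 1 line for each precursor that can give the miRNA. For each miRNA the line with the highest count summed over the 4 libraries of the study was used. Counts over all lines came to 17073442 in WT A and 11410940 in WT B. Levels are in RPM (reads per 1000000 counts over all lines), and shares are percentages of the counts over 1 line per miRNA, so that they add up to 100%. These counts are 92.0% of the all-line total in WT A and 91.3% in WT B, because the further lines of miRNAs with several precursors are left out. A count of 3 corresponded to 0.176 RPM in WT A and 0.263 RPM in WT B. Intervals for a share are exact Clopper-Pearson intervals at 95%. They cover counting error only, since PCR reads are not independent molecules. The capture of a small RNA depends on its sequence as well as its abundance, so that levels of different miRNAs set side by side are levels in the library.

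miRNAs are RNAs of about the length of the sequences below that are cut from hairpin precursors and loaded into Argonaute proteins. Either strand of the hairpin can be kept, and the strands are named 5p and 3p after the arm they come from. Bases 2 to 8 of the loaded strand, the seed, pair with sites in the 3′ untranslated regions of mRNAs and largely decide which mRNAs are repressed, so that miRNAs with the same seed form a family with overlapping targets. Many precursors lie close together in the genome and are cut from 1 transcript. In macrophages, miR-223 and miR-142 are known as haematopoietic miRNAs, and miR-146a and miR-155 as miRNAs that rise on inflammatory signalling.

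The mature sequences of the miRNAs that took most of the counts show how few seeds were involved. They are printed 5′ to 3′ as RefSeq gives them (build GRCm38.p6), with the seed in capitals. The leading miRNA, the miR-27 pair and the 9 expressed miRNAs with the let-7 seed come first.
miR-21a-5p: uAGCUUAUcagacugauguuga
miR-27b-3p: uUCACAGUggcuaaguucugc
miR-27a-3p: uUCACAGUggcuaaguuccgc
let-7i-5p: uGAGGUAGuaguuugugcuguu
let-7f-5p: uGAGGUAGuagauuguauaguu
let-7g-5p: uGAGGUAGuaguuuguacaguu
let-7a-5p: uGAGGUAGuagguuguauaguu
let-7d-5p: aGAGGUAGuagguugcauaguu
let-7c-5p: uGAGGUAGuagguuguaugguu
let-7e-5p: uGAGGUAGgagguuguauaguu
miR-98-5p: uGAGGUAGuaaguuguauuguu
let-7b-5p: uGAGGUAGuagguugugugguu

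The next 4 families by share, among miRNAs with a mature sequence in RefSeq, are shown with the miR-146 pair after which the mice are named. Their members differed in how evenly they took the family's counts.
miR-221-3p: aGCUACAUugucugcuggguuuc
miR-222-3p: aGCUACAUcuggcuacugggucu
miR-99b-5p: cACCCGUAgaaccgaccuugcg
miR-99a-5p: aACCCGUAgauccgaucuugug
miR-100-5p: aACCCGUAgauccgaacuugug
miR-25-3p: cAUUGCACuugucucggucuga
miR-92a-3p: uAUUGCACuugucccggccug
miR-32-5p: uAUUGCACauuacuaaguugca
miR-148a-3p: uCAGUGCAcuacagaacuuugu
miR-148b-3p: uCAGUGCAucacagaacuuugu
miR-152-3p: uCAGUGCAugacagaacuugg
miR-146a-5p: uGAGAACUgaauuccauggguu
miR-146b-5p: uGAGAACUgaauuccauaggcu

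Of the 1979 miRNAs, 942 (47.6%) were listed above 0 in WT A and 897 (45.3%) in WT B. In both libraries together 810 were above 0, 132 were above 0 in WT A only and 87 in WT B only, and 950 were at 0 in both. None of the miRNAs above 0 in only 1 library had more than 19 counts there. A mean of at least 10 RPM, or 171 counts in WT A and 114 in the shallower WT B, was taken as expressed, and 253 miRNAs met it. These 253 held 99.9% of the counts of each library. The median level of an expressed miRNA was 96.9 RPM in WT A and 103 RPM in WT B.

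Most of the library was held by very few miRNAs. miR-21a-5p, known for repressing Pdcd4, was listed at 379027 RPM in WT A and 341385 RPM in WT B. It made up 41.2% of the counts in WT A (interval 41.16 to 41.21%) and 37.4% in WT B (interval 37.38 to 37.44%), a mean share of 39.3% ± 2.67 (SD, n = 2). These intervals cover counting error only, not the difference between separate cultures. The 10 most abundant miRNAs held 78.6% of WT A and 77.1% of WT B, and the 100 most abundant held 98.96% and 98.93%. It took 2 miRNAs in WT A and 3 in WT B to reach 50% of the counts, and 27 and 29 to reach 90%. The effective number of miRNAs, the number of equally abundant miRNAs that would have the same Shannon entropy, was 14.8 in WT A and 16.9 in WT B. Without miR-21a-5p it was 30.7 and 32.0.

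**Figure D1:**
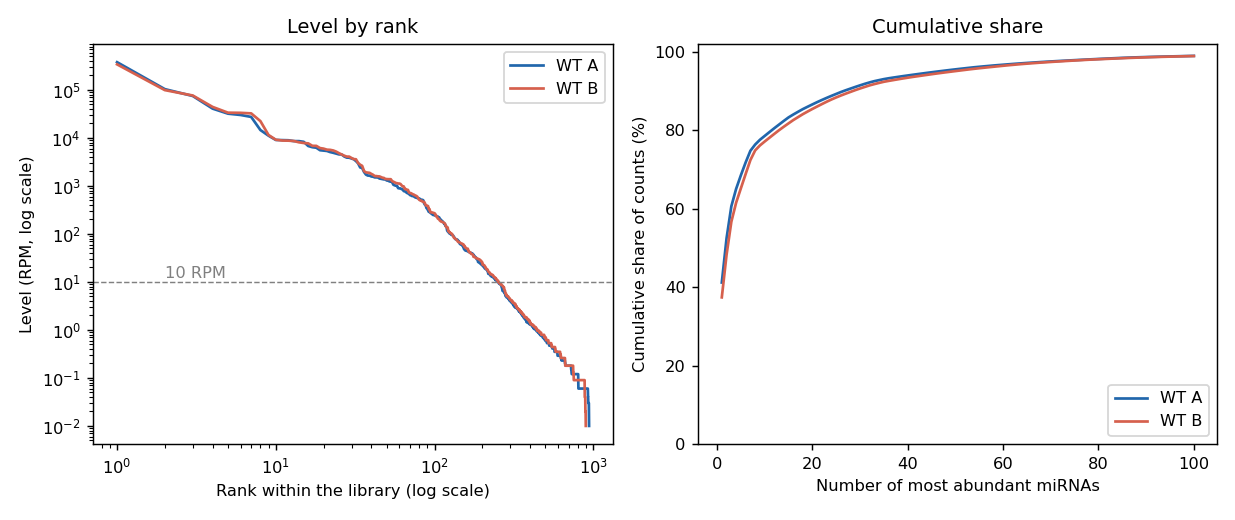
Level in RPM against rank within the library, both on log scales (left), and cumulative share of counts in percent against the number of most abundant miRNAs (right), for WT A and WT B. The leading miRNA stands at 379027 and 341385 RPM, the curves cross 10 RPM near rank 250, and the 10 most abundant miRNAs reach 78.6% and 77.1%.

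miR-27b-3p, which can repress Pparg, ranked below miR-21a-5p at 104019 RPM in WT A and 99197 RPM in WT B. let-7i-5p followed with 74790 and 76588 RPM. The step from miR-21a-5p down to these miRNAs was the widest at the top of either library. let-7f-5p was listed at 40809 RPM in WT A and 44285 RPM in WT B, and let-7g-5p at 32043 and 33357 RPM. miR-30d-5p was listed at 30096 RPM in WT A and 32501 RPM in WT B. miR-221-3p, a repressor of the cell cycle inhibitor Cdkn1b, was at 27407 RPM in WT A and 33586 RPM in WT B. These last 3 lay within the spread of the libraries of each other, since miR-221-3p was the lowest of them in WT A and the highest in WT B.

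miR-222-3p, which shares the seed of miR-221-3p and its target Cdkn1b, was at 14620 RPM in WT A and 22439 RPM in WT B. Below it the levels fell close together. miR-99b-5p (11142 RPM in WT A, 9185 in WT B) and let-7a-5p (8590 and 11517 RPM) changed places between the libraries, and miR-23a-3p (8944 and 8822 RPM) and miR-24-3p (8300 and 8625 RPM) stayed within a narrow range. miR-99a-5p was listed at 9083 and 7840 RPM, miR-140-3p at 9015 and 7712 RPM, and miR-7a-5p at 8585 and 8106 RPM. let-7d-5p was at 6409 RPM in WT A and 8778 RPM in WT B, and miR-23b-3p at 6796 and 6837 RPM. The order of these miRNAs was therefore not fixed by a pair of libraries. miR-25-3p (5075 and 6849 RPM), miR-146a-5p (6253 and 5485 RPM) and miR-191-5p (5460 and 6146 RPM) closed the 20 most abundant. The lists of the 10, 20 and 100 most abundant miRNAs of the libraries had 9, 18 and 97 members in common.

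Grouping by seed gathered the library further. A seed could be given to 229 of the 253 expressed miRNAs, those with a mature sequence in the RefSeq table, which covered 94.3% of WT A counts and 93.8% of WT B counts. The 24 others, among them miR-30d-5p, miR-23b-3p, miR-378a-3p and miR-532-5p, are in no family here. Of these, miR-30d-5p alone held 3.27% of WT A and 3.56% of WT B, above the miR-99 and miR-100 family (2.20% and 1.87%). The order of the families therefore holds only among miRNAs with a sequence. The 229 fell into 185 families, of which 23 had more than 1 expressed member and 67 members in all. Those 23 families held 44.1% of WT A counts and 47.1% of WT B counts. The 10 largest families held 83.4% and 82.3%, and the effective number of families was 8.29 in WT A and 9.02 in WT B.

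**Figure D2:**
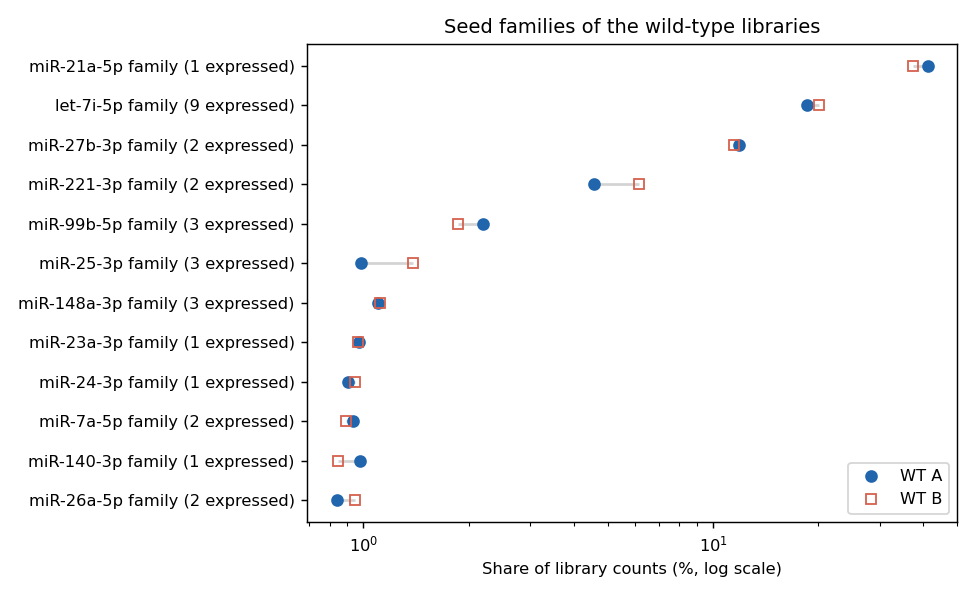
Share of library counts in percent, on a log scale, of the 12 largest seed families in WT A (filled circles) and WT B (open squares), each named after its leading member with the number of expressed members that have a sequence in the table. The first 4 families hold 41.2, 18.5, 11.9 and 4.57% of WT A and 37.4, 20.1, 11.5 and 6.14% of WT B, and the other families lie near or below 2%.

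The let-7 family, known for repressing Lin28 and Hmga2, was the largest family with several members. Its 11 listed members, 9 of them expressed, held 18.5% of WT A and 20.1% of WT B, a mean of 19.3% ± 1.09 (SD, n = 2). Set against miR-21a-5p, the family amounted to 0.450 of its share in WT A and 0.537 in WT B. let-7i-5p took 43.8% of the family's counts in WT A, and 41.8% in the other library. Counted from 1 at the 5′ end, let-7g-5p differs from it by G17A and U19A, and let-7f-5p by U12A, G17A, C18U and U19A. Reads that match several miRNAs were shared out as fractions, which touched 87 of the 253 expressed miRNAs, so the division among such close relatives is less certain than their sum. let-7c-5p (3297 RPM in WT A, 3819 in WT B), let-7e-5p (1945 and 1891 RPM), miR-98-5p (1507 and 1585 RPM) and let-7b-5p (1223 and 1483 RPM) made up the lower end of the family. The order of the 9 members was the same in both libraries, and let-7k and miR-1961, which carry the same seed, stayed below 1 RPM in each.

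The miR-27 family, with the seed UCACAGU, held 11.9% of WT A and 11.5% of WT B, and 94.9% and 94.6% of that was miR-27b-3p. miR-27a-3p, which differs from it by U19C alone, was listed at 5547 RPM in WT A and 5647 RPM in WT B. The miR-221 and miR-222 family held 4.57% and 6.14%, and miR-221-3p made up 65.2% of it in WT A and 59.9% in WT B. Here the share differed between the libraries by more than in the miR-27 family, in both members. The miR-99 and miR-100 family, known for repressing Mtor, held 2.20% and 1.87%. Its counts were divided almost evenly between miR-99b-5p and miR-99a-5p, while miR-100-5p, which differs from miR-99a-5p by U16A, was at 45.4 RPM in WT A and 41.8 RPM in WT B.

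Among the smaller families, the division between members ranged from even to nearly complete. The family of miR-25-3p, miR-92a-3p and miR-32-5p, which share the pro-apoptotic Bcl2l11 as a known target, held 0.983% of WT A and 1.38% of WT B. miR-92a-3p was listed at 3874 and 5697 RPM, and miR-32-5p at 95.4 and 67.1 RPM. The miR-148 and miR-152 family, known for repressing Dnmt1, held 1.099% and 1.12%, with miR-148a-3p (4712 and 4816 RPM) and miR-148b-3p (4544 and 4535 RPM) at nearly the same level and miR-152-3p at 859 and 828 RPM. The miR-7 family came almost wholly from miR-7a-5p, which held 99.6% of it in each library, and miR-7b-5p was at 33.2 and 31.3 RPM. miR-23a-3p and miR-24-3p stood alone as the expressed members of their seeds among miRNAs with a sequence in the RefSeq table. miR-23b-3p (6796 RPM in WT A, 6837 in WT B) has no sequence there. Whether it shares the seed of miR-23a-3p is therefore not shown here.

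The miR-146 family, which represses the signalling proteins Irak1 and Traf6, held 0.849% of WT A and 0.811% of WT B. It ranked 13 among the families formed from miRNAs with a sequence. miR-146a-5p made up 80.1% of it in WT A and 74.1% in WT B. miR-146b-5p, which differs by G18A and U21C, was listed at 1558 RPM in WT A and 1916 RPM in WT B. Of the miR-30 miRNAs, miR-30d-5p was followed at a distance by miR-30c-5p (1395 and 1604 RPM), miR-30e-5p (1031 and 1101 RPM), miR-30a-5p (571 and 660 RPM) and miR-30b-5p (607 and 502 RPM).

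**Figure D3:**
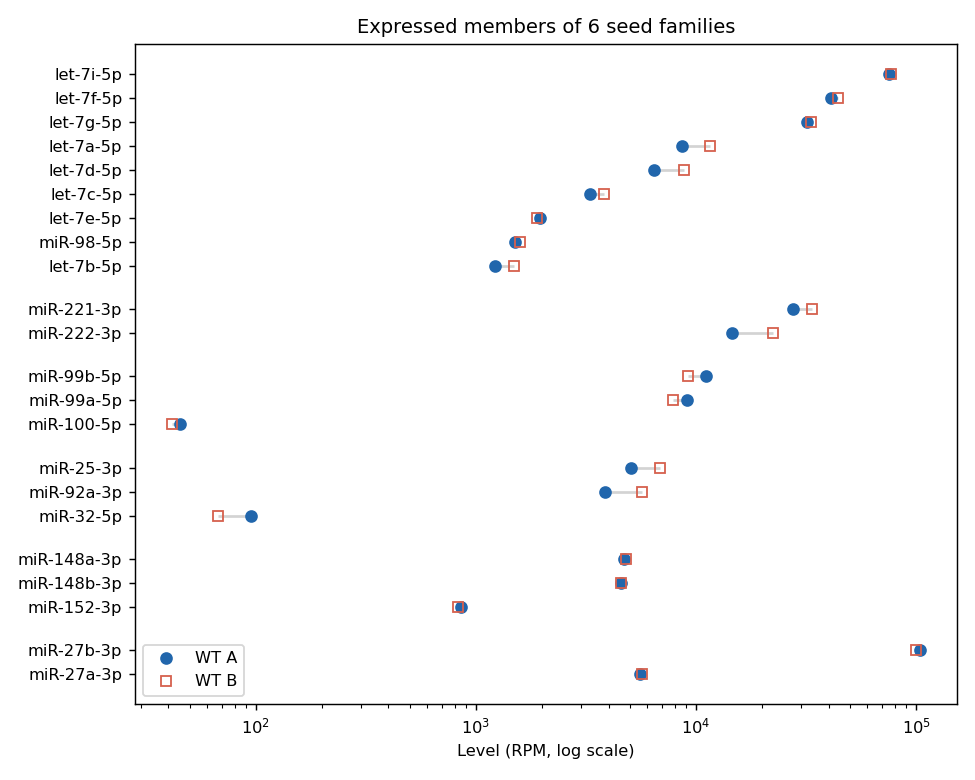
Levels in RPM, on a log scale, of the expressed members of 6 seed families in WT A (filled circles) and WT B (open squares). The let-7 members span from 1223 to 76588 RPM in the same order in both libraries, miR-222-3p and miR-92a-3p lie to the right in WT B, and the miR-148a-3p and miR-148b-3p points coincide.

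By position in the genome, the counts came mainly from a few loci. Precursors were joined into a locus where neighbours on 1 strand lay within 10 kb, with positions from RefSeq or, where it had none, GENCODE vM21, both for GRCm38 and matched by name. The build behind the small RNA counts is not given in the sources used here. The study names mm10, which is GRCm38, for its mRNA reads and its Southern probes. The 251 expressed miRNAs with a position came from 135 loci, 36 of them with more than 1 precursor. Loci of several precursors held 37.2% of WT A counts and 40.4% of WT B counts, and the 10 largest loci held 83.9% and 82.9%. The miR-21a hairpin lies at chr11:86584067-86584158 on the minus strand, where it overlaps an annotated exon of Vmp1, and held 39.3% ± 2.67 (SD, n = 2). let-7i came from a single hairpin at chr10:122985640-122985724 on the minus strand, overlapping an exon of the pseudogene transcript D630033A02Rik, and held 8.26% ± 0.187.

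The locus of miR-23b, miR-27b and miR-24-1 at chr13:63300484-63301275 on the plus strand lies in 2010111I01Rik, where miR-27b and miR-24-1 overlap an exon and miR-23b lies in an intron, and held 11.9% ± 0.291 (SD, n = 2). Its relative with miR-23a, miR-27a and miR-24-2 at chr8:84208518-84208921 has no annotated host on its strand and held 2.81% ± 0.0239, with miR-23a-3p, miR-24-3p and miR-27a-3p each taking a part. miR-221 and miR-222 lie 678 bp from end to end at chrX:19146294-19146971 on the minus strand, with no annotated host, and held 4.87% of WT A and 6.48% of WT B. let-7g, in an intron of Wdr82, held 3.57% ± 0.122, and the locus of miR-99b, let-7e and miR-125a, held 1.56% ± 0.131. In that locus miR-99b and let-7e lie in an intron of Spaca6 and miR-125a overlaps an exon of it. For miRNAs with identical mature copies the locus is uncertain. let-7f-5p can come from let-7f-2 on chromosome X (with miR-98, in an intron of Huwe1) or from let-7f-1 on chromosome 13 (with let-7a-1 and let-7d). With each miRNA given to the line used, these loci held 4.81% and 2.03%, and with each miRNA divided over its lines by their counts they held 2.57% and 3.73%, so their order turned.

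Of these 251 miRNAs, 122 lay in introns on the same strand, 69 overlapped an exon and 60 had no annotated host on their strand. A hairpin was taken to overlap an exon where it touched an exon of any annotated transcript of the host gene. It can still lie in an intron of the other transcripts of that gene. Protein-coding genes were the host of 106 of the 122 and of 36 of the 69. Exon-overlapping miRNAs by this rule held 71.0% of WT A and 68.6% of WT B, mainly through miR-21a-5p and miR-27b-3p. Chromosome X carried 37 of the 251.

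For 156 hairpins both arms were listed with a summed level of at least 10 RPM. The 5p arm held at least 90% of the hairpin's counts in both libraries in 64 of them and the 3p arm in 43, and in 49 neither arm did. The miR-21a hairpin gave 99.99% of its counts from the 5p arm in each library, with miR-21a-3p at 39.5 RPM in WT A and 27.3 RPM in WT B. In the miR-27b hairpin the 5p arm took 0.389% and 0.493%. The share of the 5p arm changed by a median of 0.357 percentage points between the cultures, but 107 of the 156 hairpins had an arm at 90% or more in both and little room to change. Among the 49 others the median change was 2.81 points, and 12 changed by at least 5 points. The largest changes were in hairpins of low level, chosen here after their values were seen. In mir-505 the 5p arm went from 25.2% in WT A to 45.6% in WT B, in mir-877 from 93.7% to 78.4% and in mir-18a from 75.8% to 60.5%. mir-30e was the 1 hairpin whose leading arm differed, with 53.7% from the 5p arm in WT A and 44.2% in WT B. In mir-181a-1 the 5p arm took 50.8% and 61.0%, but miR-181a-5p can also come from mir-181a-2. A miRNA with several precursors was set, with the count of its line used, against the other arm of 1 precursor only. The arm percentages of such hairpins are therefore uncertain, and the counts of hairpins above include them. Of the expressed miRNAs, 19 had several lines. Where both arms were expressed (75 hairpins), they moved the same way between the libraries in 40. Over all expressed miRNAs, 160 of 253 (63.2%) were higher in WT B, so that many unrelated pairs would also move the same way. The WT B over WT A ratios of the arms had a Spearman correlation of 0.135.

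A first base of U, which Argonaute proteins are known to favour together with A, was found in 41.9% of the expressed miRNAs and in 40.9% of all listed miRNAs with a sequence. By counts it made up 85.8% of WT A and 83.5% of WT B. Leaving out miR-21a-5p these values were 74.7% and 72.5%, and leaving out the 10 most abundant miRNAs 59.8% and 58.5%. The weight of U at this base was thus a property of the abundant miRNAs and not of the list of expressed ones. A first base of G was found in 6.99% of the expressed miRNAs, 12.8% of all listed ones and 0.381% and 0.366% of the counts. The median length was 22 bases, and miRNAs of 22 bases held 73.9% and 72.2% of the counts. The median GC content was 47.6% for expressed and 52.4% for other miRNAs, and weighted by counts it was 40.8% in WT A and 41.2% in WT B.

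Lists of miRNAs linked to cell types, drawn from general knowledge and not checked against a source, were summed to see which cells the libraries could hold. All 8 haematopoietic and myeloid miRNAs were expressed, with a sum of 389000 RPM in WT A and 349774 RPM in WT B, nearly all of it miR-21a-5p, which many cell types make. Of the more restricted ones, miR-223-3p, which restrains granulocyte production, was listed at 1574 RPM in WT A and 1466 RPM in WT B, and miR-142a-3p at 1721 and 1121 RPM. miR-511-3p, which is encoded in an intron of the macrophage mannose receptor gene Mrc1, was at 76.8 and 65.6 RPM. miR-155-5p was at 71.3 RPM in WT A and 70.3 RPM in WT B, and miR-147-3p, which is also known to rise on Toll-like receptor signalling, at 8.96 and 11.9 RPM. miR-511-3p, miR-155-5p and miR-147-3p lay below the median level of expressed miRNAs in both libraries. miRNAs of other lists reached like levels, miR-486b-5p of the erythroid list with 76.6 and 64.5 RPM among them, so these levels do not by themselves tell the cell type.

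Of the lists for other cells, the epithelial one was the highest. Its 6 miRNAs, 4 of them expressed, summed to 620 RPM in WT A and 843 RPM in WT B. Its most abundant member was miR-200b-3p, a repressor of Zeb1 and Zeb2, with 512 RPM in WT A and 707 RPM in WT B, while miR-141-3p (0.44 and 0.48 RPM) and miR-205-5p (0.18 and 0 RPM) were near 0. The lymphoid list summed to 484 and 559 RPM, nearly all from miR-181a-5p and miR-181b-5p, which are not restricted to lymphocytes, and miR-150-5p was at 2.93 and 2.80 RPM. The erythroid list summed to 170 and 159 RPM, through miR-486a-5p and miR-486b-5p, which overlap in the genome and share reads. miR-451a was at 18.7 and 29.97 RPM and miR-144-3p at 0.41 and 0.61 RPM. The endothelial list (11.1 and 10.2 RPM, mostly miR-126a-3p), the stromal list (10.5 and 10.7 RPM, none of 5 expressed), the neural list (4.06 and 4.97 RPM, with miR-124-3p at 0 in both), the hepatocyte miR-122-5p (1.23 and 1.84 RPM) and the muscle list (0.53 and 0.74 RPM, with miR-133a-3p at 0 in both) stayed low. The 4 embryonic stem cell miRNAs were at 0 in both libraries. In bulk RNA, a few cells with much of a miRNA and many cells with little cannot be told apart.

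**Figure D4:**
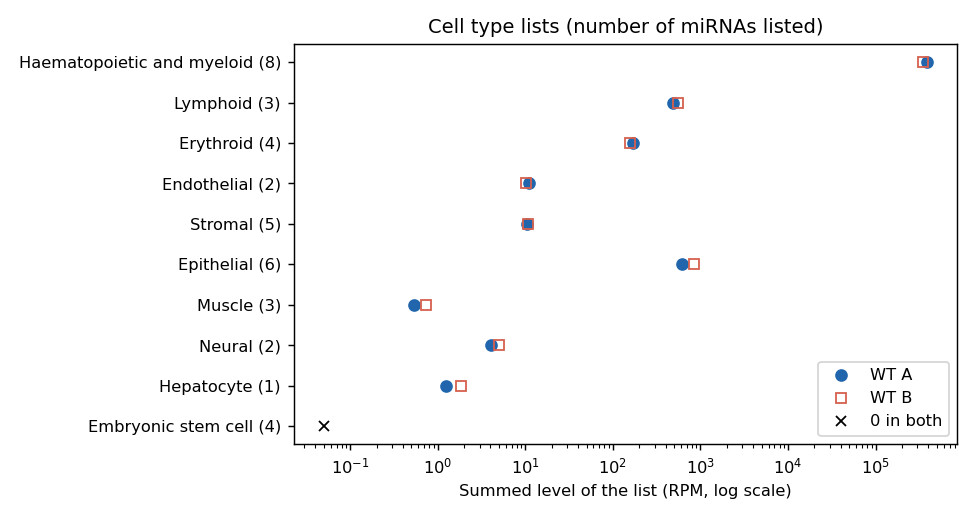
Summed level in RPM, on a log scale, of each cell type list in WT A (filled circles) and WT B (open squares), with the number of miRNAs in the list in brackets and a cross where every member is at 0. The haematopoietic and myeloid list lies near 389000 and 349774 RPM, the epithelial list at 620 and 843 RPM, and the stromal, neural, hepatocyte and muscle lists at or below 10.7 RPM.

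The libraries were then compared miRNA by miRNA, to show how far cultures of 1 genotype can differ. Ratios are given as log2(WT B RPM + 1) minus log2(WT A RPM + 1), and folds as RPM over RPM. A miRNA was called when the ratio, with its added 1 RPM, reached 1.5-fold. No p-value was computed, since a group of 1 library on each side has no replicate. Across the 253 expressed miRNAs the levels had a Spearman correlation of 0.993 and a Pearson correlation of 0.997 on the log2 scale, across miRNAs of libraries made with 1 kit. The median ratio was 0.07 with an SD of 0.26 over miRNAs, and the ratios ran from -0.66 to 0.96. In all, 160 miRNAs were higher in WT B and 93 lower. At least 1.5-fold higher in WT B were 7 miRNAs (2.77% of the 253), and at least 1.5-fold lower were 2 (0.791%). As plain RPM over RPM, the counts were 7 and 3, with miR-188-5p the third. At a ratio of 5 to 4 or more, 48 (19%) were higher and 12 (4.74%) lower, and none reached 2-fold in either direction. With the TMM scaling of edgeR, which sets the middle of the ratios near 0, the counts were 4 higher and 4 lower in place of 7 and 2.

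The direction of small ratios depended on the scaling. Over 5 scalings (RPM as deposited, RPM over 1 line per miRNA, RPM without miR-21a-5p in the total, TMM and the size factors of DESeq2), 123 of the 253 miRNAs were higher in WT B under each, 86 were lower under each, and 44 changed direction. let-7i-5p (0.03 as deposited) was among those 44.

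**Figure D5:**
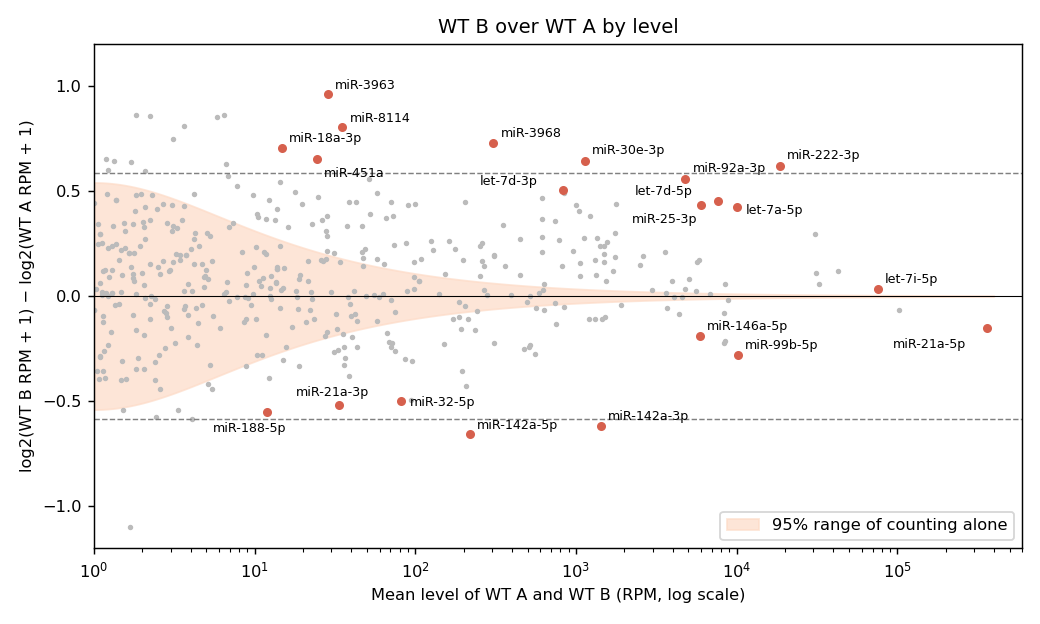
Difference in log2(RPM + 1), WT B minus WT A, against the mean level in RPM on a log scale, for miRNAs with a mean of at least 1 RPM. The shaded band is the 95% range that counting alone would give around an equal level, the dashed lines mark 1.5-fold, and red points are named miRNAs. The band closes with level while the points keep an SD of 0.23 at 1000 RPM and above.

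The spread of the ratios over miRNAs is given beside the spread from counting alone, as a description: counting error is small at this depth and leaves out every difference between separate cultures. Without a pseudocount, the SD of the log2 ratio was 1.08 for miRNAs below 1 RPM that were above 0 in both libraries. The large-count formula used for counting error gives 1.30 there. That formula is inaccurate at such low counts and does not allow for leaving out miRNAs at 0, so these values cannot be compared. From 1 to 10 RPM the SD was 0.52 against 0.38 from counting, and from 10 to 100 RPM 0.30 against 0.11. From 100 to 1000 RPM it was 0.25 against 0.03, and at 1000 RPM and above 0.23 against 0.01. The ratio lay outside the 95% counting interval of an equal level for 12 (2.03%) of the 591 miRNAs below 1 RPM, here with those at 0 in 1 library, and for 12.4%, 49.6%, 79.7% and 93.3% in the 4 higher classes. The coefficient of variation beyond counting, estimated by edgeR over the expressed miRNAs from these 2 libraries, was 12.4%. Across the expressed miRNAs the ratio was nearly unrelated to level (Spearman 0.027). Its median was 0.02 below 40% GC, 0.03 from 40 to 50%, 0.16 from 50 to 60% and 0.08 at 60% and above, with an SD over single miRNAs of 0.23 to 0.29 in each class. The Spearman correlation of the ratio with GC content was 0.152 over 229 miRNAs of the same pair of libraries.

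The miRNAs farthest apart included some of high level, where counting error was small. miR-222-3p was 1.53-fold higher in WT B (counting interval 1.53 to 1.54), and its neighbour miR-221-3p, cut from the same locus, was also higher (log2 ratio 0.29). All 4 expressed miRNAs of that locus were higher in WT B, with ratios from 0.14 to 0.62, beside 160 of 253 (63.2%) over all expressed miRNAs. The locus as a whole stayed higher under all 5 scalings (0.32 to 0.41). miR-30e-3p was listed at 889 RPM in WT A and 1390 RPM in WT B, 1.56-fold higher. miR-3968 was at 230 and 381 RPM, 1.66-fold higher. Below 100 RPM, miR-3963 (18.98 and 37.86 RPM), miR-8114 (25.4 and 45.0 RPM), miR-18a-3p (10.95 and 18.5 RPM) and miR-451a (18.7 and 29.97 RPM) were higher in WT B by 1.99-fold, 1.78-fold, 1.69-fold and 1.60-fold. The erythroid list that holds miR-451a went the other way as a sum, at 0.93-fold (-0.18 to -0.09 on the log2 scale under the 5 scalings). Of its other members, miR-486a-5p (0.86-fold) and miR-486b-5p (0.84-fold) were lower in WT B and miR-144-3p (0.41 and 0.61 RPM) was higher. Under TMM, miR-3968, miR-8114, miR-3963 and miR-18a-3p remained past 1.5-fold.

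Both strands of mir-142a were lower in WT B. miR-142a-3p was listed at 1721 RPM in WT A and 1121 RPM in WT B, 1.54-fold lower, and miR-142a-5p at 268 and 170 RPM, 1.58-fold lower. Both were called lower under all 5 scalings. miR-188-5p (14.4 and 9.46 RPM, 1.52-fold as plain RPM), miR-21a-3p and miR-32-5p came next with ratios of -0.55, -0.52 and -0.50, and the first 2 of these passed 1.5-fold under TMM. Among miRNAs of at least 100 RPM, miR-181a-1-3p (237 and 175 RPM), miR-350-3p (221 and 172 RPM) and miR-99b-5p had the next lowest ratios, at -0.43, -0.36 and -0.28. At the upper end miR-92a-3p and let-7d-3p (688 and 976 RPM) had ratios of 0.56 and 0.50.

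Members of a seed family did not always move together. In the let-7 family 8 of 9 members were higher in WT B, from -0.04 for let-7e-5p to 0.45 for let-7d-5p, beside 160 of 253 (63.2%) over all expressed miRNAs. Under TMM it was 5 of 9, beside 123 of 253 (48.6%). All 3 expressed members of the miR-99 and miR-100 family were lower (-0.28 to -0.12), beside 93 of 253 over all expressed miRNAs. The 3 members with the miR-200b-3p seed were higher and close to each other (0.45 to 0.47), and with them all 4 expressed miRNAs of the miR-200b locus (0.13 to 0.47). Of the 8 haematopoietic and myeloid miRNAs, 7 had ratios below 0, from -0.66 for miR-142a-5p to -0.02 for miR-155-5p, and miR-147-3p had 0.38. Over all expressed miRNAs 93 of 253 were lower in WT B as deposited, and 86 were lower under all 5 scalings. miR-142a-5p and miR-142a-3p are arms of 1 hairpin, so the 7 are not separate cases. The epithelial list as a whole was 1.36-fold higher in WT B (0.36 to 0.45 on the log2 scale under the 5 scalings). The part of other cells in any ratio was not tested. In the miR-25 family, miR-25-3p and miR-92a-3p were higher (0.43 and 0.56) and miR-32-5p lower (-0.50), and by the lines used these 3 come from 3 separate loci.

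Members of a locus were followed in the same way. Over all expressed miRNAs, 160 of 253 (63.2%) were higher in WT B as deposited and 123 (48.6%) under TMM. The 5 expressed miRNAs of the let-7a-1, let-7f-1 and let-7d locus on chromosome 13 were all higher in WT B as deposited, with ratios from 0.07 to 0.50, and 4 of 5 were under TMM, where let-7a-1-3p was just below 0. None of the 3 assigned to the miR-16-1 locus was, with ratios from -0.25 to -0.07. The locus of miR-23a, miR-27a and miR-24-2 was split, with 3 of 6 higher and ratios from -0.11 to 0.23 as deposited. Under TMM 1 of 6 was higher, and the summed ratio of 0.01 changed direction with the scaling.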

How the data were processed

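Small RNA libraries had been made from Trizol total RNA with the NEBNext Small RNA kit, keeping inserts of about 18 to 35 bp. The submitters' processing notes name cutadapt 1.8.3, and the aligner, counter and miRNA release are not given in the sources used here. The authors deposited estimated counts, fractional where reads fit several miRNAs, and RPM values, each count over the sum of its column. RPM recomputed from the counts differed from the deposited values by at most 0.00585.

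From these, 1 line per miRNA, shares, seed families, loci and ratios (pseudocount 1 RPM) were computed for WT A and WT B. No test was run, and a call was a 1.5-fold difference among miRNAs of at least 10 RPM. Counts were rounded for edgeR. The members, lists and thresholds were chosen with earlier results of these data known. miRNAs were named by level, family, locus, ratio at either end and cell type list, and the rest after their values were seen. Scripts were tested on simulated data. Python 3.11.15 (numpy 2.4.6, pandas 2.3.3, scipy 1.17.1, matplotlib 3.10.9) and R 4.3.3 (edgeR 4.0.16, DESeq2 1.42.0) were used. Other scalings, pseudocounts, minimums, folds, seed lengths and locus distances, and each library left out, were tried.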

Additional observations from a re-analysis of the deposited data

How the results depend on the processing

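With 2 libraries of 1 group, the values describe these cultures and no error of the group can be tested. No paired analysis was possible because the results come from no test and a single group was used. Counting every deposited line, the share of miR-21a-5p was 36.0% and that of its locus 36.0%, and that of the let-7 family 23.0%, because repeated lines add to the total. With miR-21a-5p left out, the 10 most abundant miRNAs held 65.1%, the 10 largest families 73.2%, the let-7 family 31.8% and the miR-21a locus 0.0060%, and the effective number of miRNAs was 31.3. A minimum of 1 RPM left 438 miRNAs and one of 100 RPM left 124. At 1 RPM, 20 miRNAs were 1.5-fold higher and 4 lower in WT B, and at 100 RPM 3 were higher. The median log2 ratio was -0.0072 with TMM, -8.5e-05 with DESeq2 size factors and -0.0037 without miR-21a-5p in the total. TMM and DESeq2 size factors each gave 4 higher and 4 lower, and the total without miR-21a-5p gave 9 higher and 4 lower among the 278 miRNAs that then passed 10 RPM. Over the 253 that passed as deposited, a setting added after seeing the data, it gave 5 higher, 4 lower and a median of -0.0038. At a ratio of 5 to 4 or more there were 48 higher and 12 lower, and at 2-fold 0 and 0. Dividing miRNAs over their lines, added after seeing the data, gave 2.57% for the locus of let-7f-2, 3.73% for that of let-7a-1, 2.35% for that of miR-23a and 12.3% for that of miR-23b. Leaving out 1 library leaves the value of the other, so that it shows their range and no stability: it gave 37.4 to 41.2% for miR-21a-5p and for its locus, 77.1 to 78.6% for the 10 most abundant, 82.3 to 83.4% for the 10 largest families, 18.5 to 20.1% for the let-7 family, 14.8 to 16.9 for the effective number and 250.0 to 252 expressed miRNAs.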

Other observations

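miRNAs numbered 1000 and above made up 1122 of the 1979 listed but only 31 of the 253 expressed, and held 0.442% of WT A and 0.538% of WT B. Among the 253, the highest WT B over WT A ratios on the log2(RPM + 1) scale, those of miR-3963, miR-8114 and miR-3968, belong to such miRNAs, while as plain RPM over RPM miR-18a-3p (1.69-fold) lies above miR-3968 (1.66-fold). The mature sequences of a pair of them, miR-3963 and miR-3968, share a run of 8 bases, AUCCCACU, in the sense strand. It is printed here because no other listed miRNA with a sequence holds it (2 of 1679, 0.119%). The pair was chosen for its ratios and the run as the longest it shares, so this count is a description only.
miR-3963: uGUAUCCCacuucugacac
miR-3968: cGAAUCCCacuccagacacca
Here the seed is in capitals. miR-3968 was listed at 230 RPM in WT A and 381 RPM in WT B, and miR-3963 at 18.98 and 37.86 RPM.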
